A study of Homo sapiens with 18 samples.

Results

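FXR, SHP and the bile acid genes that surround them were examined in EpCAM+ cells of the hepatocellular carcinoma (HCC) lines Huh1 and Huh7 treated with disulfiram (DSF) or 5-fluorouracil (5-FU). The set holds 10 genes of the 19720 genes named on the array, namely NR1H4 (FXR), NR0B2 (SHP), FGF19, SLC51A, SLC51B, ABCB11, ABCB4, CYP7A1, CYP8B1 and SLC10A1, and each is read by 1 probe. The set was chosen in part by measured values, since NR0B2 after 5-FU and NR1H4 after DSF were picked for their changes in these arrays. Both changes are therefore described below without a test, and all p-values belong to measures that the choice did not use. EpCAM is a surface protein that marks the tumor-initiating fraction in HCC, DSF inhibits aldehyde dehydrogenase, and 5-FU is an antimetabolite. Both lines were cultured for 48 hours with DSF at 0.1 µM or with 5-FU at 1 µM, or as a control, for which the labels give no time. EpCAM+ cells were isolated by fluorescence-activated sorting, a step that the labels list after the treatment. The 6 groups of 3 arrays (18 in all) came from independent experiments. What the control cells received is not stated. Copper chloride appears beside DSF in the methods, so copper and DSF cannot be told apart. Each line is an established culture of a human HCC.

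FXR is a nuclear receptor for bile acids. Together with its partner RXR it switches on SHP, a receptor protein without a DNA-binding domain that in turn represses the bile acid synthesis enzymes CYP7A1 and CYP8B1, and it switches on the transporters that carry bile acids and phospholipid out of the hepatocyte. In the intestine FXR also drives FGF19, a hormone that reaches the liver through the portal blood and lowers bile acid synthesis there, and many HCCs make FGF19 themselves.

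The arrays are 1-colour Agilent arrays whose spot intensities the authors deposited. All levels below are the log2 of the background-subtracted signal minus the log2 of that array's 75th percentile (normalized log2 signal), and a change is the difference of 2 group means on that scale with its standard error. A probe counts as measured on an array where the scanner software called it well above background, which held for 59.3% to 70.5% of probes per array. Levels are compared between samples for the same gene and never between genes. All 18 arrays entered 1 limma fit over 29750 probes, and a call means a Benjamini-Hochberg adjusted p below 0.05 over all of them. Arrays of Huh1 control and Huh1 5-FU shared a slide, as did those of Huh7 control and Huh7 5-FU. On another slide than their controls lay 1 of 3 Huh1 DSF arrays and 2 of 3 Huh7 DSF arrays, and the controls of the lines lay on different slides. Those 2 Huh7 DSF arrays were also the only arrays read on the second scan day, so their slide and that scan day cannot be told apart. Huh1 control replicate 1 stood apart from the other 2 Huh1 controls for NR0B2, SLC51B and ABCB4, and results that rest on it are given without replicate 1 as well. Such a fit leaves out replicate 1 of all 6 groups. The hepatocyte and HCC markers (ALB, AFP, APOA1, APOB, SERPINA1, TF, TTR, GPC3 and EPCAM) were all well above background on every array. The summed signal of 7 blood and stromal markers, of which CD3E and COL1A2 did not pass the filter, was 0.344 to 1.02 times the 75th percentile.

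The element that FXR and RXR are known to bind is an inverted repeat of AGGTCA with 1 base between the repeats, AGGTCANTGACCT, which reads the same on both strands. RefSeq promoters (GRCh38.p14, from 250 bases before to 50 bases after the start) were at hand for 5 of the 10 genes, namely NR1H4, ABCB11, SLC10A1, SLC51A and SLC51B. A match to these 13 letters with at most 2 mismatches was present in 3 of them, ABCB11, SLC51B and SLC10A1, against 394 (1.12%) of all 35116 promoters and 5 of the 73 promoters of the other pathway genes described below. Shown are the promoters of the bile salt export pump ABCB11 (chr2:169031275-169031574, minus strand) and of the transporter subunit SLC51B (chr15:65045137-65045436, plus strand), the genes with such a match that had a level to follow in the arrays, with the match in capitals.
ABCB11 promoter: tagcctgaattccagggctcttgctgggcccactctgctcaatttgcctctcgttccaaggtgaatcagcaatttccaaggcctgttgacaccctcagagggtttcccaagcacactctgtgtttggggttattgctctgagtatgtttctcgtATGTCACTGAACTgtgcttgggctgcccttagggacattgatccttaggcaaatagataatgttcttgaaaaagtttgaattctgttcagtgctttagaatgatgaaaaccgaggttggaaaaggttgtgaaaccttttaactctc
SLC51B promoter: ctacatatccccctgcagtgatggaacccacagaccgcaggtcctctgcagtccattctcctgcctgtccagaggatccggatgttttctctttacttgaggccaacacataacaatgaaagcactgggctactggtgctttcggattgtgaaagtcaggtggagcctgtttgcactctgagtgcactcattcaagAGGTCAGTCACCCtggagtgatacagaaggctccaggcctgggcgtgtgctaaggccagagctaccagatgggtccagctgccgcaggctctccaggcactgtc
The match begins 96 bases before the start site in ABCB11 and 54 bases before it in SLC51B, each with 2 mismatches. In SLC10A1 it begins 149 bases before the start site, also with 2 mismatches. A match of letters is a description of the sequence, and binding was not measured in these samples. Stretches with more than 2 mismatches are not marked, so the capitals need not be the stretch that FXR binds.

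NR1H4, which encodes FXR itself, was well above background on all 18 arrays. Its normalized log2 signal was 3.07, 3.40 and 3.34 in Huh1 control cells, 2.69, 2.59 and 2.70 after DSF, and 3.16, 2.89 and 2.87 after 5-FU. In Huh7 cells it was 3.20, 3.20 and 3.20 in controls, 2.31, 2.14 and 2.13 after DSF, and 3.24, 3.24 and 3.12 after 5-FU. All DSF arrays lay below all control arrays of their line, whereas the 5-FU arrays overlapped the controls in both lines. The DSF difference was -0.61 ± 0.09 (SE, n = 3 against 3) in Huh1 and -1.01 ± 0.09 in Huh7, a 1.52-fold and a 2.01-fold lower signal, and since the gene was chosen by this very contrast no test is attached. The fall in Huh7 exceeded that in Huh1 by 0.40 on the log2 scale (-0.40 ± 0.13), again as a description, and it was -0.26 with slide in the fit and -0.25 when arrays were scaled to their median. On the arrays of the controls' slide alone the DSF difference was -0.63 in Huh1 (2 DSF arrays) and -0.89 in Huh7 (1 DSF array).

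The 2 lines had like levels of NR1H4 in control cells, with means of 3.27 ± 0.18 and 3.20 ± 0.0024 (SD, n = 3) and a difference of -0.07 ± 0.09 (limma adjusted p = 0.532). It was -0.17 without replicate 1 (adjusted p = 0.0297), 0.11 under quantile normalization and 0.0015 with spike-in scaling, the last 2 without a call. After 5-FU the Huh1 level was 0.30 lower (-0.30 ± 0.09, limma adjusted p = 0.0183), but turned to 0.53 (adjusted p = 0.00743) with the arrays scaled to spike-in probes. The call was lost without replicate 2 (-0.19, adjusted p = 0.339), without replicate 3 (-0.21, adjusted p = 0.294) and with only the groups compared in the fit (adjusted p = 0.12). Without replicate 1 the difference was -0.49 (adjusted p = 0.000259). In Huh7 the 5-FU difference was -0.0001 ± 0.09 (adjusted p = 0.999), and 0.98 with spike-in scaling; the 5-FU differences of the lines were 0.30 ± 0.13 apart (adjusted p = 0.101). The order of the 6 group means of NR1H4 ran from Huh1 control over Huh7 control, Huh7 5-FU and Huh1 5-FU to Huh1 DSF and Huh7 DSF, and the ranges of neighbouring groups overlapped down to Huh1 5-FU but not at the last 2 steps.

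NR0B2, the gene for SHP and the classic target of FXR in liver, was also well above background on all 18 arrays. Its normalized log2 signal was -2.15, -0.66 and -0.70 in Huh1 control cells, 0.04, 0.08 and 0.19 after DSF, and 2.12, 2.79 and 2.84 after 5-FU. In Huh7 it was -1.48, -1.61 and -1.44 in controls, -1.11, -1.21 and -1.22 after DSF, and 1.76, 2.61 and 3.12 after 5-FU. In each line every 5-FU array lay above every control and every DSF array. The 5-FU difference was 3.76 ± 0.37 (SE, n = 3 against 3) in Huh1 and 4.0 ± 0.37 in Huh7, a 13.5-fold and a 16.0-fold higher signal, which is the pattern the gene was chosen by and carries no test. Between the lines these differences were 0.25 ± 0.52 apart, and between -0.14 and 0.89 when each replicate in turn was left out. With spike-in scaling the 5-FU differences were 4.58 and 4.99, and without replicate 1 that in Huh1 was 3.5.

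DSF moved NR0B2 less, and in a contrast that the choice of genes did not use. In Huh1 the DSF level was 1.27 ± 0.37 above control, 2.42-fold (limma adjusted p = 0.0109), with all 3 DSF arrays above all 3 controls. Without replicate 1 this difference was 0.82 (adjusted p = 0.00267). The call was lost when only the 2 groups entered the fit (adjusted p = 0.055), without replicate 2 (1.54, adjusted p = 0.0691) and on the controls' slide alone (1.23, adjusted p = 0.0828). In Huh7 the DSF arrays also lay above the controls, yet the difference of 0.33 ± 0.37 was not called (adjusted p = 0.482) except when only those 2 groups were fitted (adjusted p = 0.01). The DSF effect on NR0B2 was not called different between the lines (-0.94 ± 0.52, Huh7 minus Huh1, adjusted p = 0.16). NR0B2 in control cells was 0.34 lower in Huh7 than in Huh1 (-0.34 ± 0.37, adjusted p = 0.421), or 0.84 lower without replicate 1 (-0.84, adjusted p = 0.00112). In the order of group means Huh1 5-FU and Huh7 5-FU came first and overlapped each other, followed after a gap of 2.39 by Huh1 DSF, then Huh1 control and Huh7 DSF with overlapping ranges, and Huh7 control last.

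FGF19, the hormone that signals bile acid return to the liver, separated the lines. Its normalized log2 signal was 0.37, 0.34 and 0.35 in Huh7 control cells, and -6.42, -5.34 and -4.55 in Huh1 control cells, of which only the third array was well above background. The level was 5.79 ± 0.35 higher in Huh7 (limma adjusted p = 1.23e-09); with 2 of the 3 Huh1 values at background the size of this difference depends on the background correction, and it was 3.88 after the normexp correction. After DSF FGF19 stood at -0.84, -0.81 and -0.88 in Huh7, below all controls by 1.19 (-1.19 ± 0.35, 2.28-fold, adjusted p = 0.012). That difference kept its size with slide in the fit (-1.19) but not its call (adjusted p = 0.118), and the call was also lost without replicate 2 (adjusted p = 0.126) and without replicate 3 (adjusted p = 0.0604). The 1 Huh7 DSF array on the controls' slide also lay 1.19 below the controls (-1.19). In Huh1 the DSF arrays read -4.25, -4.42 and -4.06, all well above background and all above the controls, a difference of 1.19 ± 0.35 (adjusted p = 0.0121) from a control group of which 1 of 3 arrays was measured. That Huh1 difference was 0.44 (adjusted p = 0.00824) with normexp and 0.70 (adjusted p = 0.0464) without replicate 1. It was not called on the controls' slide alone (1.1, adjusted p = 0.158), with slide in the fit (adjusted p = 0.0513), without replicate 2 (1.33, adjusted p = 0.0986) or when only those 2 groups were fitted (adjusted p = 0.0918). The DSF effect thus had opposite signs in the 2 lines, and the difference between the effects was called (-2.38 ± 0.49, Huh7 minus Huh1, limma adjusted p = 0.0016). After 5-FU FGF19 was 0.003, 0.29 and 0.04 in Huh7 and -5.25, -4.21 and -4.45 in Huh1. Neither difference from control was called (-0.24 ± 0.35, adjusted p = 0.581, and 0.80 ± 0.35, adjusted p = 0.0726), although with spike-in scaling the Huh7 value turned to 0.74 and the Huh1 value of 1.63 was called (adjusted p = 0.000707).

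SLC51A and SLC51B encode the 2 subunits of the organic solute transporter, which lets bile acids leave cells of the ileum and liver across the basolateral membrane and needs both subunits. All 9 Huh1 arrays read SLC51A at background. In Huh7 it read -0.88, -0.87 and -0.87 in controls, -4.90, -4.88 and -4.94 after DSF, and -2.04, -2.15 and -3.34 after 5-FU, each well above background. The 3 Huh7 groups did not overlap. SLC51A was at least 24.7-fold higher in Huh7 than in Huh1 control cells. This bound sets the Huh7 mean against, per Huh1 array, the higher of the probe's own value and the lowest signal called well above background on that array. The probe passed the filter on dim probes through Huh7 groups alone, so its call between the lines is not read as a test. In Huh7 SLC51A was 16.4-fold lower after DSF (-4.04 ± 0.30, limma adjusted p = 1.48e-07). The difference was -2.78 after the normexp correction, and -4.03 for the 1 DSF array on the controls' slide. The 5-FU level was 1.64 lower (-1.64 ± 0.30, 3.11-fold, adjusted p = 0.000281), a call that was lost with spike-in scaling (-0.66, adjusted p = 0.0618).

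SLC51B, in contrast, was well above background on all 18 arrays. In Huh1 its normalized log2 signal was 1.04, 1.88 and 1.90 in controls, 1.56, 1.44 and 1.60 after DSF, and 2.25, 2.26 and 2.29 after 5-FU. In Huh7 it was 1.79, 1.75 and 1.79 in controls, 1.62, 1.28 and 1.36 after DSF, and 3.96, 4.52 and 4.30 after 5-FU. The 5-FU arrays lay above the controls in both lines without overlap. SLC51B rose after 5-FU by 2.48 ± 0.19 in Huh7 (5.58-fold, limma adjusted p = 7.01e-08) and by 0.66 ± 0.19 in Huh1 (1.58-fold, adjusted p = 0.0103). The Huh1 value was 0.39 without replicate 1 (adjusted p = 0.00515) and 1.49 with spike-in scaling, and its call was lost when only the 2 groups were fitted (adjusted p = 0.0786) and without replicate 3 (0.80, adjusted p = 0.0637). The 5-FU effect was larger in Huh7 by 1.82 ± 0.27 (limma adjusted p = 0.000131), with every fit of the interaction between 1.54 and 2.25. DSF did not change SLC51B by a called amount in either line (Huh1 -0.07 ± 0.19, adjusted p = 0.782; Huh7 -0.36 ± 0.19, adjusted p = 0.137). Without replicate 1 both were called, at -0.37 (adjusted p = 0.00723) and -0.45 (adjusted p = 0.00258). The Huh7 DSF arrays left in that fit all lay on another slide and scan day than their controls, so drug and slide cannot be told apart there. The Huh7 difference was also called with only the groups compared in the fit (adjusted p = 0.0253), and was -0.16 (adjusted p = 0.729) with slide in the fit. In Huh7 after 5-FU the 2 subunits therefore moved in opposite directions relative to the array's 75th percentile, with SLC51A lower and SLC51B higher; SLC51A was below control under each of the 5 scalings, though without a call with spike-in scaling.

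Since FGF19 and SLC51A are prominent in the intestinal epithelium, the markers of enterocytes were read beside them. In Huh1 CDX2, LCT and SI were not well above background on any array, and VIL1 was. In Huh7 control cells all 4 of these markers were well above background. CDX2, an intestinal transcription factor, was at least 772-fold, LCT at least 2.71-fold and SI at least 1.25-fold higher there than in Huh1 controls. VIL1 was lower in Huh7 than in Huh1 controls (-0.25 ± 0.10, limma adjusted p = 0.0362). The probes of CDX2, LCT and SI passed the filter on dim probes through Huh7 arrays alone, so their calls between the lines are not read as tests. The summed marker signal, relative to the 75th percentile, was 34.1 to 34.7 in Huh7 controls, 19.6 to 22.4 after DSF and 30.1 to 38 after 5-FU, and 15.9 to 24.5 over all Huh1 arrays. After DSF in Huh7 all 4 markers were lower (CDX2 at -0.75 ± 0.17, adjusted p = 0.00199, and VIL1 at -0.72 ± 0.10, adjusted p = 4.53e-05), with LCT at least 4.65-fold and SI at least 2.27-fold lower. After 5-FU in Huh7, where SLC51A was lower, CDX2 was lower too (-1.76 ± 0.17, adjusted p = 5.16e-07) and VIL1 was higher (0.76 ± 0.10, adjusted p = 1.34e-05). LCT (-0.86, adjusted p = 0.179) and SI (0.31, adjusted p = 0.555, with 2 of 3 5-FU arrays well above background) were not called there. The part that any such marker pattern has in the levels of FGF19 and SLC51A was not tested.

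The markers of cholangiocytes were KRT7, KRT19, SOX9 and CFTR. In Huh1 their summed signal was 30.3 to 60.5 times the 75th percentile in controls, 82.1 to 85.6 after DSF and 56.5 to 73.6 after 5-FU, and CFTR was not well above background there. KRT7, KRT19 and SOX9 were called higher after DSF (0.77, 1.98 and 1.23) and after 5-FU (0.64, 1.22 and 1.44) in Huh1. In Huh7 the sum was 62.7 to 67.7 in controls, 63 to 64.5 after DSF and 60.3 to 149 after 5-FU. There CFTR was higher after 5-FU (1.97 ± 0.16, limma adjusted p = 1.17e-07) and SOX9 was lower after DSF (-0.44, adjusted p = 0.0288). In Huh7 KRT7 (-0.35), KRT19 (0.64) and SOX9 (-0.19) were not called after 5-FU. Nor were KRT7 (0.35), KRT19 (-0.04) and CFTR (-0.35) after DSF. The part of the cholangiocyte markers in the higher NR0B2 after 5-FU in both lines and after DSF in Huh1, and in the higher SLC51B after 5-FU, was not tested. In sorted pools, fewer cells that express a gene and less RNA per cell cannot be told apart.

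ABCB11, the bile salt export pump of the canalicular membrane, showed the reverse line pattern. It read -2.66, -3.13 and -2.98 in Huh1 controls, -3.22, -3.27 and -2.95 after DSF, and -3.06, -3.04 and -3.13 after 5-FU, all well above background. In Huh7 it was not well above background on any control or DSF array, and it was on all 3 5-FU arrays (-5.34, -5.46 and -4.83). Accordingly ABCB11 was at least 8.36-fold lower in Huh7 than in Huh1 control cells (fitted difference -4.68, limma adjusted p = 8.47e-13). After 5-FU in Huh7 it was at least 1.72-fold higher (fitted difference 2.40, adjusted p = 8.12e-09), but with normexp, which compresses signals near background, the difference was 0.04 (adjusted p = 0.729). The p-values belong to the fitted differences, which include signals at background, and not to the bounds. In Huh1 neither DSF (-0.22 ± 0.15, adjusted p = 0.245) nor 5-FU (-0.15 ± 0.15, adjusted p = 0.417) gave a called difference, and the 3 groups overlapped. The 5-FU value, however, was 0.67 with spike-in scaling (adjusted p = 0.00498), -0.27 with normexp (adjusted p = 0.0287), and the DSF value was -0.39 with median scaling (adjusted p = 0.0351). How far the 5-FU effect differed between the lines has no measured size, since the Huh7 control was at background, and it was 0.31 (adjusted p = 0.0973) with normexp.

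ABCB4, which moves phosphatidylcholine into bile and so protects the biliary epithelium from bile salts, was measured on all 18 arrays. Its normalized log2 signal was -0.81, -0.21 and -0.06 in Huh1 controls, -1.12, -1.08 and -1.07 after DSF, and -0.66, -0.53 and -0.55 after 5-FU. In Huh7 it was 0.45, 0.42 and 0.46, then -0.16, -0.29 and -0.34 after DSF, and -0.01, 0.84 and 0.94 after 5-FU. Every DSF array lay below every control of its line. ABCB4 was lower after DSF in both lines, with differences of -0.73 ± 0.21 (1.66-fold, limma adjusted p = 0.0114) in Huh1 and -0.71 ± 0.21 (1.64-fold, adjusted p = 0.0135) in Huh7. The difference between the lines was 0.02 ± 0.30 (adjusted p = 0.962). The Huh7 call was lost with slide in the fit (-0.61, adjusted p = 0.188) and without replicate 2 (adjusted p = 0.143) or replicate 3 (adjusted p = 0.118). The Huh1 call was lost without replicate 2 (-0.66, adjusted p = 0.168) or replicate 3 (-0.59, adjusted p = 0.151), while without replicate 1 the Huh1 difference was -0.94 (adjusted p = 1.58e-05). ABCB4 in control cells was 0.81 ± 0.21 higher in Huh7 (1.75-fold, adjusted p = 0.00332), 0.78 with slide in the fit (adjusted p = 0.126) and 0.58 without replicate 1 (adjusted p = 5.85e-05). The 5-FU groups overlapped their controls, with differences of -0.22 ± 0.21 (adjusted p = 0.424) for Huh1 cells and 0.14 ± 0.21 (adjusted p = 0.587) for Huh7 cells. With spike-in scaling the differences were 0.61 (adjusted p = 0.0156) and 1.13 (adjusted p = 0.000146), and without replicate 1 -0.40 (adjusted p = 0.000931) and 0.45 (adjusted p = 0.000452).

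The enzymes that SHP is known to repress were at or near background. CYP7A1, the rate-limiting enzyme of the classic bile acid pathway, was well above background only on the 3 Huh1 5-FU arrays (-4.53, -5.65 and -5.84), against -6.32, -7.38 and -6.45 in Huh1 controls. This put it at least 1.17-fold higher, whereas normexp gave -0.02. The probe passed the filter on dim probes through this group alone, so its call in this comparison was conditioned on the group being high and is not read as a test. CYP8B1, which directs synthesis to cholic acid, stayed at background throughout the 18 arrays (-8.59 to -7.28). So did SLC10A1, the sodium-dependent bile acid importer of hepatocytes that also serves hepatitis B virus as receptor (-8.01 to -5.90). For these 2 genes no difference between groups can be read.

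Calls among the members are set here beside the share of all probes called in the same comparison. Of the 10 genes 8 passed the filter on dim probes, which a gene could pass through 1 group alone. Between the control cells of the lines 4 of 8 were called, 3 higher in Huh7 (SLC51A, ABCB4 and FGF19) and 1 lower (ABCB11), while 70.8% of all probes were called (34.6% higher and 36.3% lower). The call of SLC51A is not read as a test, since its probe passed the filter through Huh7 groups alone. The same holds for CYP7A1 after 5-FU in Huh1, which passed through that group alone. After DSF 4 of 8 were called in Huh1 (NR0B2 and FGF19 higher, NR1H4 and ABCB4 lower) against 44.3% of all probes (24.0% higher and 20.4% lower). In Huh7 after DSF it was 5 of 8, namely NR1H4, ABCB4, FGF19 and SLC51A lower and ABCB11 higher, against 46.8% of all probes (27.4% higher and 19.4% lower). ABCB11 was at background in both of those groups, so its call is not read as a change. After 5-FU 5 of 8 were called in Huh1 (NR0B2, SLC51B and CYP7A1 higher, NR1H4 and SLC51A lower, with SLC51A below background in both groups) against 48.3% (22.3% higher and 26.0% lower), and 4 of 8 in Huh7 (NR0B2, SLC51B and ABCB11 higher, SLC51A lower) against 57.2% (27.4% higher and 29.8% lower). NR1H4 after DSF and NR0B2 after 5-FU were in these counts by choice, so nothing is read from their part. The same holds for NR1H4 in the line difference of the DSF effect, given next. The effect of DSF differed between the lines for 4 of 8 genes (NR1H4, FGF19, SLC51A and ABCB11, the last 2 with a line in which neither group was measured) and for 40.4% of all probes, and that of 5-FU for 3 of 8 (SLC51B, ABCB11 without a measured Huh7 control, and CYP7A1 without a measured Huh7 group) and for 36.6%. The median change of the 8 genes was -0.15 after DSF in Huh1, -0.53 after DSF in Huh7, 0.25 after 5-FU in Huh1 and 0.07 after 5-FU in Huh7, with medians of 0.00, 0.08, -0.03 and -0.05 over all probes. The medians of the 8 genes include the changes that chose NR1H4 and NR0B2. They also include genes with both groups at background, so nothing is read from them.

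All of these changes are relative to the bulk of probes on an array. Against 7 bright spike-in probes, which read RNAs added in fixed amount during labelling, the 75th percentile itself was 0.83 higher after 5-FU in Huh1 and 0.98 higher in Huh7, and 0.13 higher and 0.18 lower (-0.18) after DSF. Scaled to the spike-in probes, 22305 of 22669 called probes were higher after 5-FU in Huh1 and 22825 of 23861 in Huh7, compared with 6631 of 14377 and 8142 of 17018 under the 75th percentile. The rises of NR0B2 and SLC51B after 5-FU and the fall of NR1H4, ABCB4 and, in Huh7, SLC51A after DSF had the same sign under all 5 scalings. The 5-FU values of NR1H4, ABCB4, ABCB11 and FGF19, by contrast, moved across 0 in at least 1 line.

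**Figure D1:**
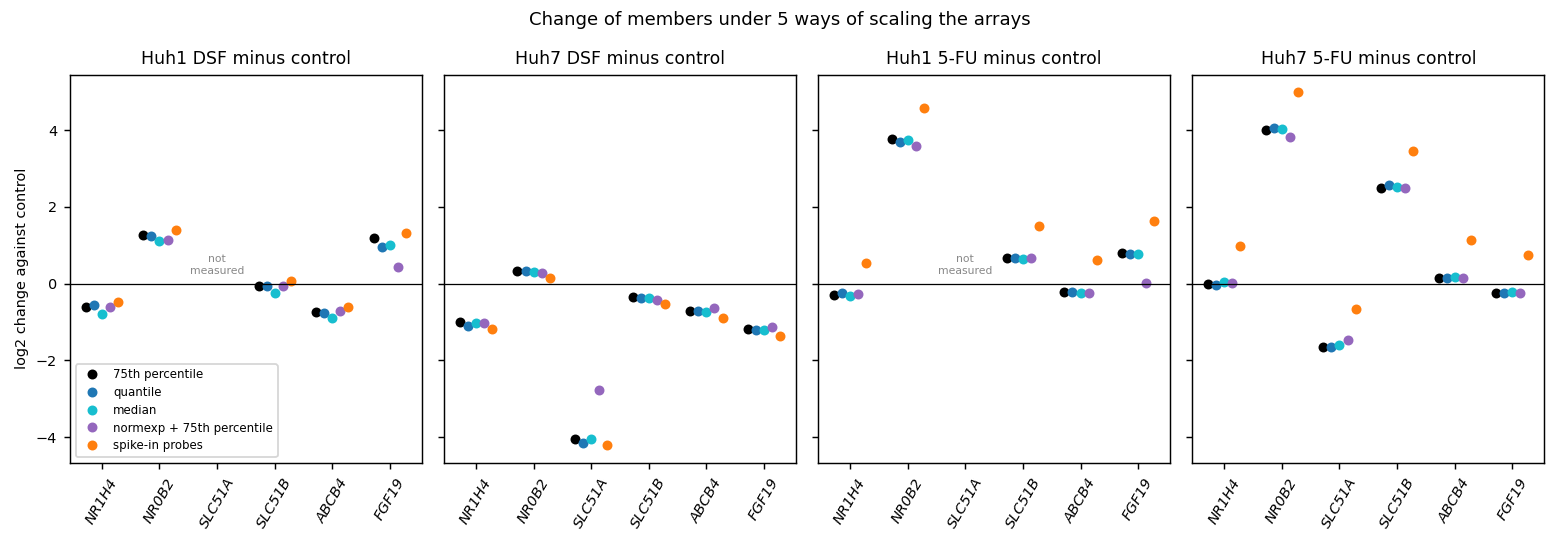
Change against control (y axis, log2) of 6 genes in the 4 drug comparisons, with 1 point for each of 5 ways to scale the arrays; SLC51A is left out in Huh1, where it was not measured. Spike-in scaling (orange) lifts all 5-FU values, for NR1H4 in Huh7 from -0.0001 to 0.98, and NR0B2 and SLC51B lie above 0 under all 5 ways after 5-FU.

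The wider bile acid pathway was followed by role, with 59 further genes in 5 lists, each read by its brightest tested probe. The counts describe each list and were not tested against other genes. Of the other synthesis enzymes 11 of 13 were tested (CYP7B1 and CYP46A1 were not), and after DSF 8 of 11 were called lower in Huh1, 1 of them at background in both groups, and 4 of 11 in Huh7, against 20.4% and 19.4% of all probes. None and 1 were higher, against 24.0% and 27.4%, with medians of -0.43 and -0.27 beside 0.00 and 0.08 over all probes. SLC27A2, which activates bile acid precursors with coenzyme A, fell in both lines (Huh1 -1.09 ± 0.22, limma adjusted p = 0.001; Huh7 -1.37 ± 0.22, adjusted p = 0.00017). So did HSD3B7 (-0.33 and -0.40) and HSD17B4 (-0.43 and -0.27), but both lost their Huh7 call with slide in the fit (adjusted p = 0.167 and 0.3). After 5-FU 4 of 11 rose and 2 fell in Huh1 (all probes 22.3% and 26.0%), and 6 rose and 3 fell in Huh7 (27.4% and 29.8%). The 6 include AKR1D1, whose probe passed the filter on dim probes through the 5-FU groups alone, so its call is not read as a test. The peroxisomal oxidase ACOX2 rose by 1.46 ± 0.24 (adjusted p = 0.000202) and 1.89 ± 0.24 (adjusted p = 1.21e-05), the oxysterol hydroxylase CYP39A1 by 1.49 ± 0.15 (adjusted p = 2.6e-06) and 1.84 ± 0.15 (adjusted p = 1.33e-07), and HSD3B7 by 0.27 and 0.96. HSD17B4 was lower by -0.52 and -0.43 under the 75th percentile and higher, at 0.31 and 0.55, with spike-in scaling. Between control cells AKR1C4 (-5.65), ACOX2 (-3.40) and HSD3B7 (-2.91) were lower and SLC27A2 (1.72) was higher in Huh7.

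Among genes of conjugation and detoxification, 4 of the 5 tested were lower and 1 was higher in Huh7 than in Huh1 control cells (all probes 36.3% and 34.6%), with a median of -5.38; CYP3A4 was not tested. BAAT, which joins bile acids to glycine or taurine, was at least 257-fold lower in Huh7 and not well above background there, and the glucuronosyltransferases UGT2B4 and UGT2B7 were lower by -8.08 and -5.38 and the coenzyme A ligase SLC27A5 by -2.43. After DSF all 5 fell in Huh1 (all probes 20.4%), with a median of -1.44. In Huh7 3 fell (all probes 19.4%), with a median of -0.44, and 1 was called higher, BAAT, which was measured on 1 of 3 DSF arrays and no control. UGT2B4 (-1.44 and -0.49), SLC27A5 (-0.82 and -0.65) and UGT2B7 (-0.44 in both) fell in both lines, but UGT2B4 lost its Huh7 call with slide in the fit (adjusted p = 0.113). Cross-hybridization between the closely related UGT2B probes was not tested. After 5-FU 1 rose in Huh1 (all probes 22.3%), and 4 rose and 1 fell in Huh7 (27.4% and 29.8%) with a median of 1.17. UGT2B7, at 0.39 ± 0.07 (limma adjusted p = 0.000503) and 1.08 ± 0.07 (adjusted p = 1.86e-08), was the gene of this list that rose after 5-FU in both lines.

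Among other transporters of the bile acid and canalicular system 10 of 11 were tested (SLC10A2 was not). After DSF 5 were called lower (1 of them, ABCG8, at background in both groups) and 1 higher in Huh1 (all probes 20.4% and 24.0%), and 6 fell and 1 rose in Huh7 (19.4% and 27.4%). ATP8B1, a flippase of the canalicular membrane, changed by -0.87 ± 0.16 (limma adjusted p = 0.000395) and -0.60 ± 0.16 (adjusted p = 0.00602), the uptake carrier SLCO2B1 by -0.62 and -0.58, and the exporter ABCC4 by -0.29 in both lines. Of these, ATP8B1 and ABCC4 lost the Huh7 call with slide in the fit (adjusted p = 0.14 and 0.122). The sterol exporter subunit ABCG8 changed by -2.14 ± 0.50 in Huh7 (adjusted p = 0.00314, or 0.0549 with slide in the fit) and was not well above background in Huh1 control or DSF cells. After 5-FU 1 of 10 rose and 0 fell in Huh1 (all probes 22.3% and 26.0%), 5 rose and 2 fell in Huh7 (27.4% and 29.8%), and no gene was called in the same direction in both lines. The 5 include SLCO1B3, whose probe passed the filter on dim probes through the Huh7 5-FU group alone, so its call is not read as a test. In control cells the importer SLCO1B1 was at least 11.6-fold lower in Huh7 and ABCG8 at least 35.5-fold higher, with FABP6 (-3.53), the ileal bile acid binding protein, and the exporter ABCC2 (-3.29) lower in Huh7.

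Of 16 receptors and partners of FXR, 9 fell and 4 rose after DSF in Huh1 (all probes 20.4% and 24.0%) and 8 fell and 3 rose in Huh7 (19.4% and 27.4%), with medians of -0.48 and -0.29. PPARA changed by -1.03 ± 0.10 (limma adjusted p = 1.19e-06) and -1.47 ± 0.10 (adjusted p = 4.95e-08), and HNF4A, a master regulator of the hepatocyte, by -0.90 and -0.67. The FGF19 receptor FGFR4 and its co-receptor KLB changed by -1.02 and -1.52 in Huh1 and by -0.34 and -0.46 in Huh7, where both calls were lost with slide in the fit (adjusted p = 0.138 and 0.248). After DSF all 9 hepatocyte and HCC markers were lower in Huh1 and 6 of 9 in Huh7, beside the lower NR1H4 and HNF4A, with summed marker signals of 498 to 539 against 688 to 753 in Huh1 and 828 to 936 against 1050 to 1070 in Huh7. Their part in the result was not tested. After 5-FU 5 rose and 6 fell in Huh1 (all probes 22.3% and 26.0%), and 6 rose and 4 fell in Huh7 (27.4% and 29.8%). These 5 and 6 include PPARGC1A, as do the 3 that rose after DSF in Huh7. The PPARGC1A probe passed the filter on dim probes through drug-treated groups alone, so its calls are not read as tests. With spike-in scaling 12 and 14 of 16 rose and 0 fell, beside 22305 and 22825 of all 29750 probes called higher. The xenobiotic receptor NR1I2 (PXR) rose by 0.55 ± 0.13 (adjusted p = 0.0037) and 2.22 ± 0.13 (adjusted p = 6.87e-09), NR1I3 (CAR) by 1.22 and 0.97, and the vitamin D receptor VDR by 1.17 and 0.87. The coactivator PPARGC1A was at least 2.33-fold higher in Huh1, where it was not measured in controls, and 0.19 (adjusted p = 0.139) with normexp. VDR (2.55), KLB (2.27) and PPARA (1.43) were higher and NR1I2 (-1.93) was lower in Huh7 than in Huh1 control cells.

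Of 13 other liver genes known as FXR targets, 5 rose and 3 fell after DSF in Huh1 (all probes 24.0% and 20.4%) and 3 rose and 9 fell in Huh7 (27.4% and 19.4%). KNG1, the kininogen gene, changed by -2.39 ± 0.30 (limma adjusted p = 2.11e-05) and -2.28 ± 0.30 (adjusted p = 3.53e-05), FETUB by -1.62 in Huh1 and by -2.05 in Huh7, where 1 of 3 DSF arrays was well above background. The autophagy receptor SQSTM1 rose by 0.63 and 1.77 and the kinase PDK4 by 1.1 and 0.77. After 5-FU 6 rose and 2 fell in Huh1 (all probes 22.3% and 26.0%) and 6 rose and 3 fell in Huh7 (27.4% and 29.8%). APOC2, the activator of lipoprotein lipase, rose by 1.89 ± 0.17 (adjusted p = 1.15e-06) and 1.5 ± 0.17 (adjusted p = 4.29e-06) and the fibrinogen chains FGB by 0.78 and 1.40 and FGA by 1.28 and 0.33. VLDLR was lower by -0.43 and -1.48 and, with spike-in scaling, 0.39 and -0.50. Between control cells PLTP (5.19) and INSIG2 (2.10) were higher and FETUB (-3.25) and SQSTM1 (-2.53) lower in Huh7. With spike-in scaling 11 and 10 of the 13 rose after 5-FU, and 0 and 1 fell, beside 22305 and 22825 of all 29750 probes called higher.

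The genes whose levels followed NR0B2 most closely over the 18 arrays, among the 15746 other genes with a tested probe, were CYP39A1 (Pearson r = 0.97), TMEM79 (0.967), CMTM3 (0.966), SCRN1 (0.964) and TSC22D1 (0.96). CYP39A1 is itself an enzyme of bile acid synthesis; its group means were -2.76, -2.40 and -1.27 in Huh1 control, DSF and 5-FU cells and -2.78, -3.02 and -0.95 in Huh7. For NR1H4 the closest were MYO1D (0.947), AURKB (0.942), ECH1 (0.94), PLEKHA1 (0.939) and DENND1C (0.929). Within the set SLC51B had the highest r to NR0B2 (0.75), while that of NR1H4 to NR0B2 was 0.211. These values describe 18 arrays that share 6 groups and slides and carry no test.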

How the data were processed

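Total RNA of EpCAM+ cells was hybridised to 18 1-colour Agilent arrays (3 in each of 6 groups), designed on hg19. The authors deposited scanner output, in which each spot has a background-subtracted fluorescence intensity and detection flags from Agilent Feature Extraction 10.7.1.1 per the file headers, and a table of linear values that the authors normalised in GeneSpring to each array's 75th percentile. The log2 of the deposited table lay within 0.05 of the log2 scanner values after a constant shift for 100.0% of probes and served as an alternative.

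Intensities of unflagged spots were averaged per probe, and log2 values were centred on each array's 75th percentile, whose log2 ran from 10.10 to 10.84. Of 42405 probes, 29750 were detected above background by every array of some group and were fitted with limma 3.58.1 (R 4.3.3) over the 6 groups without covariates, with Benjamini-Hochberg adjustment. The number of arrays limits the precision. No spot was saturated, and 316 to 447 spots per array were flagged. Of 27099 probes with a listed RefSeq accession, 25736 received a symbol. A fold against a group that was not well above background is a lower bound. The normexp alternative (offset 50) used the median spot signal. Replicate numbers came from separate experiments and did not pair the samples (correlations of deviations -0.093 to 0.014).

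The members and gene lists were chosen with earlier results of these data known. All 10 members are named. Of each further role, the text names at most 4 genes called the same way in both lines per drug and the 4 with the largest difference between the line controls, and for NR0B2 and NR1H4 the 5 genes of highest Pearson r. Promoters came from RefSeq (GRCh38.p14), a different build from the array design, and no coordinates were carried between them. Alternatives (14 planned, 1 added after seeing the data) covered background correction, scaling, probe filters, slide, replicate block, samples in the fit and each replicate left out. The fit was tested on simulated data.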

Additional observations from a re-analysis of the deposited data

Results flagged for a closer look

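The fitted effect of 5-FU on ABCB11 differed between the lines by 2.55 on the log2 scale (Huh7 minus Huh1, limma adjusted p = 9.18e-07). This is not a measured size, because no Huh7 control array was well above background for ABCB11; the rise in Huh7 was at least 1.72-fold, the change in Huh1 was -0.15, and with normexp the difference was 0.31 (adjusted p = 0.0973). For SLC51B the 5-FU effect was larger in Huh7 by 1.82 (adjusted p = 0.000131), with changes of 0.66 and 2.48. The DSF effect on FGF19 differed by -2.38 (adjusted p = 0.0016), with changes of 1.19 in Huh1, where 1 of 3 control arrays was well above background, and -1.19 in Huh7; with normexp it was -1.56 (adjusted p = 4e-06). All 3 were picked out because a test of the difference between the lines passed the threshold.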

How the results depend on the processing

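Counts below are of member genes called, of 8 tested unless stated, followed by the counts over all probes in the same fits. Restricting the test to probes well above background on all arrays left 4 members and 1 called between the line controls, 2 after DSF in Huh7, 3 and 2 after 5-FU in Huh1 and Huh7, and 1 each for the line difference in the DSF and the 5-FU effect. Of all 22287 such probes 16263, 11865, 12328, 14376, 10147 and 9260 were called in these comparisons, in that order. Fitting only the groups compared gave 2 after DSF and 1 after 5-FU in Huh1, the controls' slide alone (chosen after seeing the data) gave 2 after DSF in Huh1, and slide as a block gave 3 after DSF in Huh7. Of all 29750 probes 13806, 12568, 11398 and 8527 were called there, in that order. With each replicate left out in turn the counts were 4 to 6 between the line controls, 1 to 5 and 3 to 6 after DSF in Huh1 and Huh7, 3 to 4 and 4 to 5 after 5-FU, 3 to 4 for the DSF line difference and 2 to 5 for the 5-FU line difference. Over all 29750 probes they were 17969 to 21631, 7781 to 14592 and 7468 to 16711, 8577 to 16483 and 12987 to 17714, 5353 to 14549, and 5213 to 12522. The replicate block gave 4, 4, 5, 5, 4, 4 and 3 for the 7 comparisons in that order, with no member call changed. Over all probes it gave 20795, 12793, 13488, 14041, 16742, 11488 and 10428.

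Sign changes were as follows. Between the line controls NR1H4 was 0.11 under quantile normalization and 0.0015 with spike-in scaling, and SLC51B -0.12 to 0.32 with each replicate left out. SLC51B after DSF in Huh1 was 0.060 with spike-in scaling and -0.37 to 0.11 with each replicate left out. After 5-FU in Huh1 spike-in scaling gave 0.53 for NR1H4, 0.67 for ABCB11 and 0.61 for ABCB4, and normexp -0.017 for CYP7A1. After 5-FU in Huh7 NR1H4 was 0.0195 with normexp, 0.030 with median scaling, 0.98 with spike-in scaling, 0.0017 in the deposited table and -0.020 to 0.040 with each replicate left out, ABCB4 was -0.0215 to 0.45 with each replicate left out and FGF19 0.74 with spike-in scaling. The line difference in the DSF effect on ABCB4 was -0.29 with spike-in scaling and -0.071 to 0.18 with each replicate left out. Of 612 alternative values for single genes, 536 kept direction and side of the threshold, 27 lost and 14 gained the call, 15 moved beyond the replicate spread and 20 changed sign; causes were not tested.

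Over all probes, the calls after DSF numbered 9445 (7046 higher) in Huh1 and 9294 (3188 higher) in Huh7 with spike-in scaling, against 13188 (7128 higher) and 13937 (8153 higher); median scaling gave 14353 (4727 higher) in Huh1. Normexp gave 18365 (5445 higher) after 5-FU in Huh1 and 20475 (7215 higher) in Huh7, and no filter 18215 (6503 higher) in Huh1. For the line differences, spike-in scaling gave 8337 (1406 higher) for DSF and 6756 (4490 higher) for 5-FU, and median scaling 12912 (8858 higher) for DSF, against 12028 and 10903. Slide as a block gave 8527 after DSF in Huh7 and the controls' slide 6739, the latter with 1 DSF array that is assumed to vary like the other groups; without replicate 2 or 3 the counts were 7781 and 8548 after DSF in Huh1, 7468 and 7883 in Huh7, 8577 and 9018 after 5-FU in Huh1, 5353 and 6254 for the DSF and 5213 and 5996 for the 5-FU line difference. Each member has 1 probe, so another probe of the gene could not be tried. Values near background, namely those of CYP7A1, ABCB11 in Huh7, SLC51A in Huh1 and FGF19 in Huh1, limit the sizes that can be read.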
